A study of Arabidopsis thaliana with 12 samples.

Results

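Caesium exposure in the roots of Arabidopsis thaliana, a small cress widely used in plant genetics, was examined on 3 arrays of roots labelled cs and 3 arrays of control roots. These 6 arrays were chosen by their titles out of 12 in a study of plants under lasting low-level caesium-137, which is radioactive, the other 6 being shoots of the same 2 kinds of plant. The Cs roots are taken as roots of exposed plants from the series title, and the control roots as roots of unexposed plants. All 12 arrays carry developmental stage 1.0, and the labels give neither the dose, the length of exposure, the plants' age in days nor their accession. The replicates are numbered 1 to 3 in each group, and whether they are separate plants or cultures is not stated. The p-values therefore reflect the spread among these arrays alone, and that spread may be technical.

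Caesium ions resemble potassium ions and enter roots largely through proteins that carry potassium and other cations. Caesium-137 also emits beta and gamma radiation, which can damage DNA and generates reactive oxygen species that antioxidant enzymes remove. Root cell walls take part in such responses through extensins, structural wall proteins that class III peroxidases can cross-link.

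Each array, of the Affymetrix ATH1 type, measured 22746 probe sets besides its controls, each probe set being a group of short probes for a transcript. Values are MAS5 signals, linear brightness scaled so that all arrays have the same trimmed mean, and are listed in the order of replicates 1, 2 and 3. Differences are Cs root minus control root on the log2(signal + 11) scale, ± the standard error from limma with 3 arrays in each group. Of the probe sets, 15508 were bright enough in root or shoot to be tested, and 8458 of these name 1 gene. Median signals lay between 47.9 and 49.6 in the Cs roots and between 45.3 and 47.9 in the control roots. Log2 signals correlated between 0.943 and 0.950 among Cs roots, between 0.952 and 0.974 among control roots, and between 0.922 and 0.976 across the groups, over the tested probe sets. The tissue label was borne out by PYK10, a beta-glucosidase typical of roots, with 3707 ± 213 in Cs roots and 3343 ± 430 in control roots (SD, n = 3 each), against 518 ± 242 in Cs shoots and 461 ± 108 in control shoots. The expansin genes EXPA7 and EXPA18, markers of root hairs, had 131, 55.8 and 124 in Cs roots and 83.0, 98.5 and 86.9 in control roots, and 171, 82.7 and 158 in Cs roots and 130.2, 109 and 108 in control roots. Cs root replicate 2 was the lowest of the 6 root arrays for both genes.

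Cs root replicate 2 stood apart from the other 5 root arrays by its content of shoot transcripts. Shoot-type transcripts were defined as the 271 tested probe sets whose mean over the 6 shoot arrays was at least 16-fold above the mean over the 6 root arrays, 122 of which name 1 gene. Their median signal, as a percent of the mean over shoots, was 2.13%, 5.50% and 1.48% in the Cs roots, against 3.00%, 1.70% and 1.87% in the control roots. Cs root replicate 2 was the highest of the 6 root arrays in 226 of the 271. The order of the other arrays did not follow exposure, since control root replicate 1 was next and Cs root replicate 3 was lowest. In bulk samples such as these, fewer cells of a type and less RNA per cell cannot be told apart. The median log2 difference of the 271 was 0.28, with 228 higher and 43 lower in Cs roots by their means, and it was -0.10 without Cs root replicate 2. Within replicate numbers 1, 2 and 3 the medians were -0.28, 1.18 and -0.14, so only number 2 lay on the higher side. In 10 of the 271 the 3 Cs roots lay above all 3 control roots, and in 0 below, against 4.57% above and 4.32% below over all tested probe sets.

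**Figure D1:**
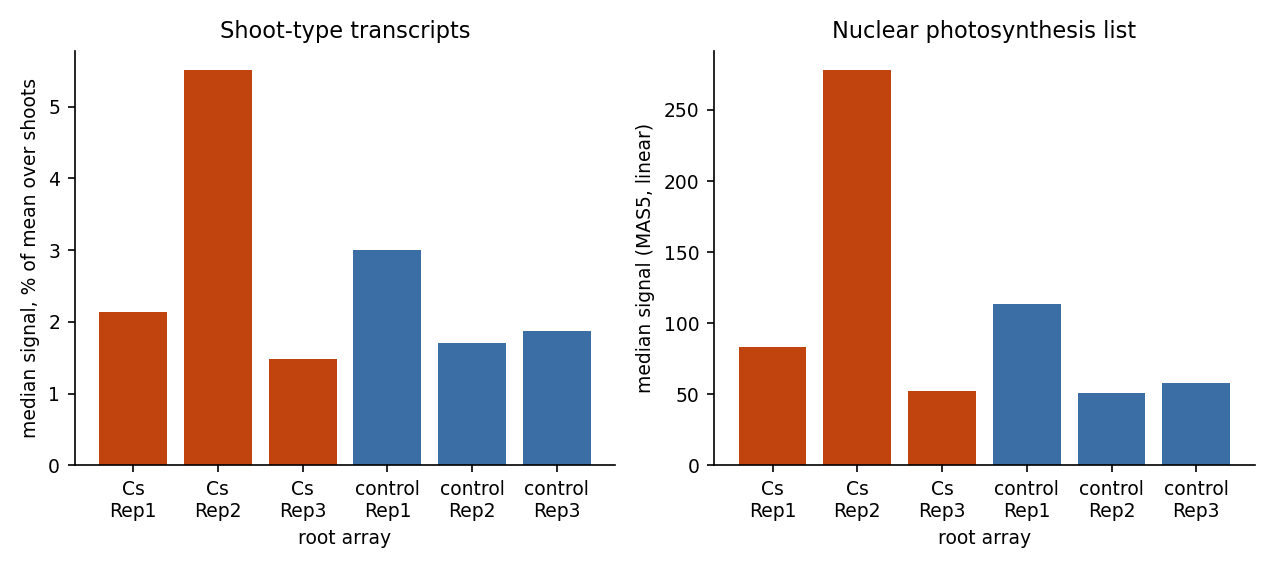
Median signal on each root array of the 271 shoot-type probe sets, in percent of their mean over the 6 shoot arrays (left), and of the 12 nuclear photosynthesis genes in linear MAS5 signal (right). Each bar is 1 array, and Cs root replicate 2 is the tallest in both panels, at 5.50% and a signal of 278.

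The light-harvesting and carbon-fixing genes that define green tissue were also highest in Cs root replicate 2. Of the 12 described here, 10 are themselves shoot-type probe sets, so they are not separate evidence. The median signal of 12 nuclear photosynthesis genes was 83.3, 278 and 52.2 in Cs roots, against 114, 50.8 and 58.0 in control roots, and their summed signal ranged from 837 to 3558 in Cs roots and from 712 to 1639 in control roots. None of the 12 is at 0 in any root array, 11 had higher means in Cs roots (50.2% over all tested probe sets), and Cs root replicate 2 was the highest of 6 in 10. Their median log2 difference was 0.57 with all arrays and -0.04 without Cs root replicate 2, and 0 of 12 passed the test. LHCB4.1, a chlorophyll-binding protein of photosystem II, had 156, 554 and 101 in Cs roots and 227, 84.6 and 117 in control roots. RCA, the activase of Rubisco, had 196, 505 and 68.6 in Cs roots and 299, 71.1 and 84.5 in control roots. In both genes a control root, replicate 1, held the second place, above Cs roots 1 and 3. The log2 differences of PRK, which encodes phosphoribulokinase, and SBPASE, which encodes sedoheptulose-bisphosphatase, both Calvin cycle enzymes, were 0.71 ± 0.40 and 0.58 ± 0.39, and 0.40 and 0.06 without Cs root replicate 2.

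Genes encoded in the plastid genome had the same highest array, and 17 of the 68 tested probe sets are themselves shoot-type. Over 68 tested plastid-encoded probe sets the median signal was 97.6, 236 and 56.0 in Cs roots, against 109, 84.9 and 64.5 in control roots, and Cs root replicate 2 was the highest of 6 in 62. The median log2 difference was 0.25, and -0.16 without that array. The photosystem II core gene psbB had 37.0, 121 and 20.2 in Cs roots and 22.4, 1.83 and 11.2 in control roots, with overlapping groups and a log2 difference of 1.46 ± 0.53, which was 0.87 without Cs root replicate 2 and 0.78 with a constant of 44 in place of 11. ndhI, a subunit of the plastid NDH complex, had 257, 524 and 313 in Cs roots and 234, 269 and 205 in control roots. Its groups overlapped, and number 2 held the largest gap.

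The largest single excesses of Cs root replicate 2 were in shoot-type genes. ECS1 had 22.3, 518 and 17.8 in Cs roots and 31.4, 3.75 and 7.21 in control roots, beside a mean of 5114 in control shoots. AT2G25510 had 93.8, 1345 and 111 in Cs roots and 102, 55.1 and 103 in control roots, against 5638 in control shoots, and AT1G09310 and AT2G41090 had 162 and 127 in Cs root replicate 2 and at most 17.6 and 20.5 in the other root arrays. In all, 99 probe sets were over 2-fold above the highest of the other 5 root arrays in Cs root replicate 2, 79 of them shoot-type, while Cs root replicates 1 and 3 had 1 and 5 such probe sets and the control roots 15, 0 and 2. Root-type transcripts, 97 probe sets at least 16-fold higher in roots, had medians of 860, 867 and 967 in Cs roots, against 817, 809 and 879 in control roots. The part of shoot-type transcripts in the results below was not tested for single genes beyond the values given without Cs root replicate 2. A fit with each array's shoot-type level as a covariate is given with the processing settings.

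The first comparison set the 3 Cs roots against the 3 control roots without pairing. In limma with Benjamini-Hochberg adjustment over all 15508 probe sets, 0 passed an adjusted p of 0.05 (0%). At an unadjusted p under 0.05 there were 625 (4.03%). In Cs roots 396 of these were higher (2.55%) and 229 lower (1.48%). The higher share of these 625 was 63.4%. Among the probe sets under that p with array medians set equal it was 38.2%, and among those after quantile normalization 54.6%. The balance of directions thus depended on scaling. The median 95% half-width of a log2 difference was 0.41, or 1.33-fold. The genes named next are the 12 on each side with the smallest unadjusted p among those whose 3 Cs roots lay on one side of all 3 control roots, which the naming rule required, and none of the 24 passed.

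AT4G08380, an extensin-like gene, had the smallest p on the higher side. Its signals were 318, 277 and 412 in Cs roots and 144, 90.1 and 73.0 in control roots. The lowest Cs root was above the highest control root, and the log2 difference was 1.64 ± 0.24 (limma, adjusted p = 0.895), or 1.77 without Cs root replicate 2. AT2G41480 encodes PRX25, a class III peroxidase, and had 246, 238 and 223 in Cs roots and 145, 159 and 146 in control roots. Both groups were tight, and the difference was 0.62 ± 0.13. AT5G06630, another extensin-like gene, read by a probe set that may cross-hybridise with related genes, had 358, 344 and 417 in Cs roots and 268, 214 and 175 in control roots. Control root replicate 1 came nearest to the Cs roots, and the difference was 0.76 ± 0.17.

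AT1G64590 had 250.1, 317 and 447 in Cs roots and 105, 182 and 174 in control roots, a difference of 1.08 ± 0.26. Replicate 1 was the lowest array in both groups. AT4G22640 had 195, 287 and 402 in Cs roots and 112, 139.9 and 141 in control roots and a difference of 1.06 ± 0.24, with Cs root replicate 3 the highest. AT4G25370 had 189, 154 and 177 in Cs roots and 102, 88.6 and 109 in control roots, a difference of 0.73 ± 0.15. In this gene the Cs roots stayed above the controls with no marked order by number. AT3G27200, with a difference of 0.59 ± 0.12, had 223, 213 and 220.4 in Cs roots and 139, 136 and 151 in control roots, and AT5G02230, with 0.79 ± 0.16, had 101, 128 and 136 in Cs roots and 57.9, 72.0 and 66.3 in control roots. Both sets of groups were compact.

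The other 4 genes on the higher side were dimmer, and their differences vary with the constant added before the logarithm. AT5G55970, AT3G50590 and AT4G16745 had log2 differences of 0.90, 0.85 and 0.81, and of 0.63, 0.49 and 0.36 with a constant of 44. AT2G10940, one of the shoot-type transcripts, had 18.7, 82.0 and 29.0 in Cs roots and 5.34, 4.75 and 4.65 in control roots, beside 2010.4 in control shoots. Cs root replicate 2 was again the highest, and the difference of 1.59 was 1.11 without it and 0.77 with a constant of 44. In 5 of these 12 genes control shoots had more signal than control roots.

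**Figure D2:**
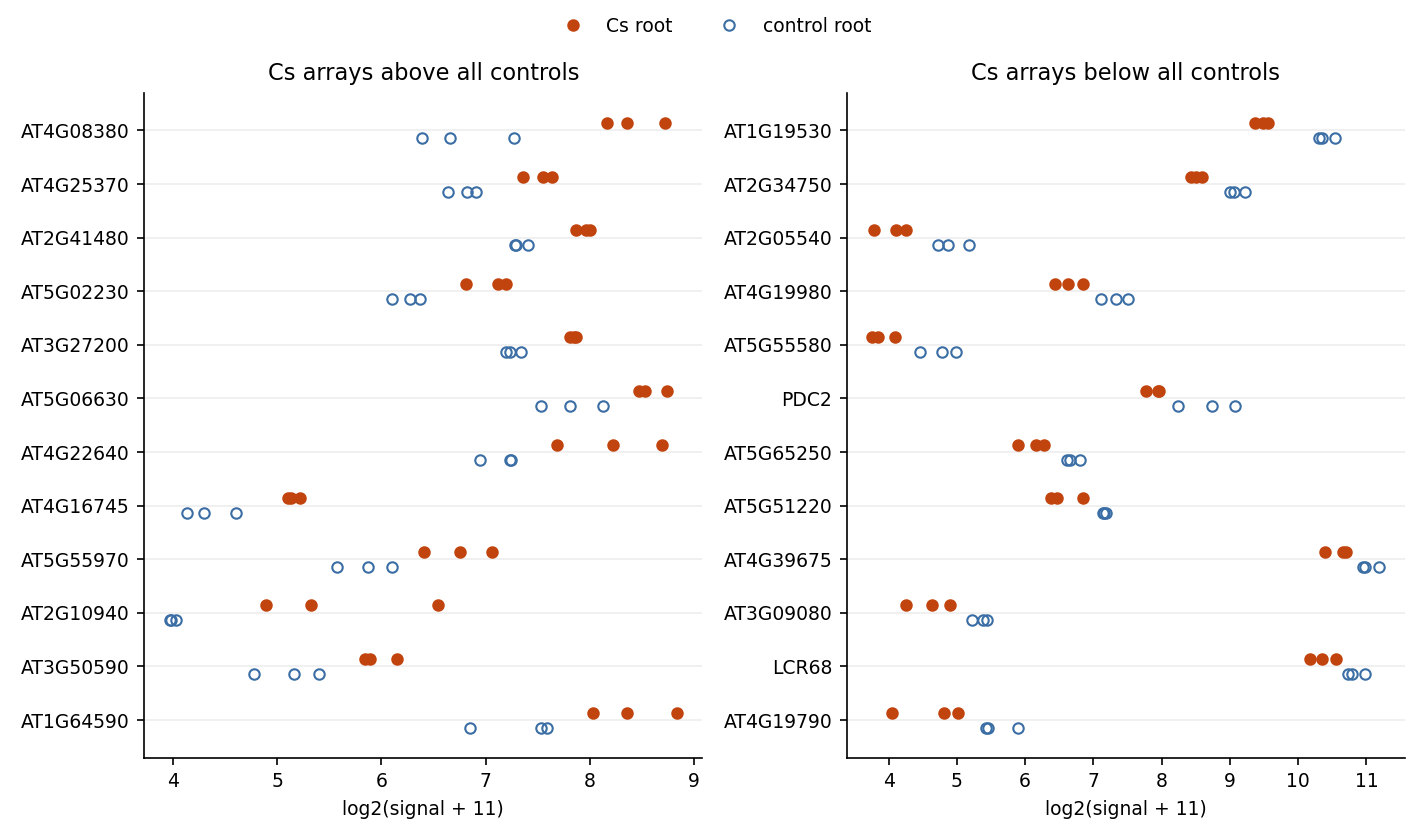
Log2(signal + 11) of the 12 genes named with Cs roots above all control roots (left) and the 12 with Cs roots below them (right). Each point is 1 array, filled for Cs roots and open for control roots, and the groups do not overlap in any of the 24 because the naming rule required it.

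On the lower side AT1G19530 had the smallest p of all tested probe sets. It had 707, 647 and 746 in Cs roots and 1289.7, 1484 and 1254 in control roots. Each Cs root had less signal than any control root, and the log2 difference was -0.93 ± 0.12 (limma, unadjusted p = 4.1e-05, adjusted p = 0.629). PDC2, which encodes a pyruvate decarboxylase, the enzyme that leads pyruvate into ethanol fermentation, had 235, 238 and 207 in Cs roots and 526, 418 and 291 in control roots. The Cs roots were alike and the control roots spread widely, with a difference of -0.79 ± 0.21. LCR68, a defensin-like small cysteine-rich protein gene, had 1491, 1138 and 1292 in Cs roots and 2006, 1757 and 1695 in control roots, a difference of -0.48 ± 0.13.

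AT2G34750 had 377, 335 and 353 in Cs roots and 521, 499 and 588 in control roots and AT4G39675 had 1334, 1649 and 1605 in Cs roots and 2015, 2324 and 1964 in control roots. Both are bright in roots, with differences of -0.58 ± 0.12 and -0.46 ± 0.13. AT4G19980, AT5G65250 and AT5G51220 had differences of -0.68, -0.58 and -0.60. Of the 12 genes, 4 had low root signals: AT5G55580, which encodes mTERF9 of the mitochondrial transcription termination factor family, AT2G05540, AT3G09080 and the pseudogene AT4G19790. The probe set of AT4G19790 may also read related transcripts. For AT5G55580 the signals were 6.02, 3.40 and 2.54 in Cs roots and 16.4, 11.0 and 20.6 in control roots, and its difference of -0.84 was -0.32 with a constant of 44. With that constant AT2G05540 had -0.35 in place of -0.87, AT3G09080 -0.36 in place of -0.75, and AT4G19790 -0.48 in place of -0.97.

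The second comparison took differences within replicate numbers. Whether the numbers pair the arrays was checked from the deviations of each array from its group mean over the tested probe sets. The correlation of these deviations between same-numbered Cs and control roots was 0.47 for number 1, -0.02 for number 2 and 0.40 for number 3, and between differently numbered arrays it ranged from -0.48 to 0.21. Numbers 1 and 3 thus deviated together and number 2 did not, and the labels do not say what a number stands for. The values below therefore describe the fit with number as a block, which leaves 2 residual degrees of freedom in place of 4, and they carry no claim that the arrays are pairs.

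With the replicate block, limma called 11 of 15508 probe sets (0.0709%), 10 higher (0.0645%) and 1 lower (0.00645%) in Cs roots, against 0 without it. At an unadjusted p under 0.05 there were 1263 (8.14%), with 777 higher (5.01%) and 486 lower (3.13%). Of the 11, 5 name a gene and 0 are shoot-type. In 8 of the 11 the unpaired groups overlapped. In all 10 that rose, replicate 1 was the lowest array of both groups. Compared with the unpaired fit, the block favours probe sets whose numbers differ alike in both groups. The share of all tested probe sets with this order was not counted.

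AT3G55790 had 76.6, 362 and 433 in Cs roots and 2.05, 52.2 and 46.0 in control roots. Within numbers 1, 2 and 3 the log2 differences were 2.75, 2.56 and 2.96, a mean of 2.76 (limma with the block, adjusted p = 0.00141). The control signal of number 1 lies far under the constant of 11, so the size of that difference is set by the constant, and the mean was 3.31 with a constant of 2.75 and 1.96 with 44. AT3G60420 rose as well, with 60.3, 149.9 and 214 in Cs roots and 10.6, 39.3 and 56.7 in control roots, and differences of 1.72, 1.68 and 1.73 (adjusted p = 0.0136), whose mean of 1.71 was 1.17 with a constant of 44. Both genes were at their lowest in replicate 1 of each group, and in both the Cs roots lay above all control roots, although the lowest Cs root was close to the highest control root in AT3G60420.

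UGT73D1, a UDP-glucosyl transferase that attaches sugar to small molecules, had 48.0, 122 and 105 in Cs roots and 8.88, 41.7 and 30.3 in control roots. It rose within numbers by 1.57, 1.33 and 1.49 (limma with the block, adjusted p = 0.0328), and the mean of 1.46 was 0.92 with a constant of 44. CHI, a chitinase, an enzyme class that breaks down fungal wall polymers, had 208, 499 and 823 in Cs roots and 86.4, 219 and 269 in control roots. Here the groups overlapped, since Cs root replicate 1 was below control roots 2 and 3, and the within-number differences were 1.17, 1.15 and 1.57 (adjusted p = 0.0289). AT4G24110 was the single gene that fell, with 158, 41.1 and 22.8 in Cs roots and 381, 99.1 and 77.8 in control roots, and within-number differences of -1.22, -1.08 and -1.39 (adjusted p = 0.0357). In this gene replicate 1 was the highest array of both groups, the reverse of the 10 that rose. The calls were sensitive to settings chosen after seeing the data: 4 of the 11 passed with a constant of 44, 2 with no intensity trend and 1 with no filter on dim probe sets, AT3G55790 among each of these, and AT3G60420 passed with the constant of 44 and with no trend. UGT73D1, CHI and AT4G24110 passed in none of these settings. With the constant of 44 their adjusted p was 0.0543, 0.0543 and 0.0750 (limma with the block).

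**Figure D3:**
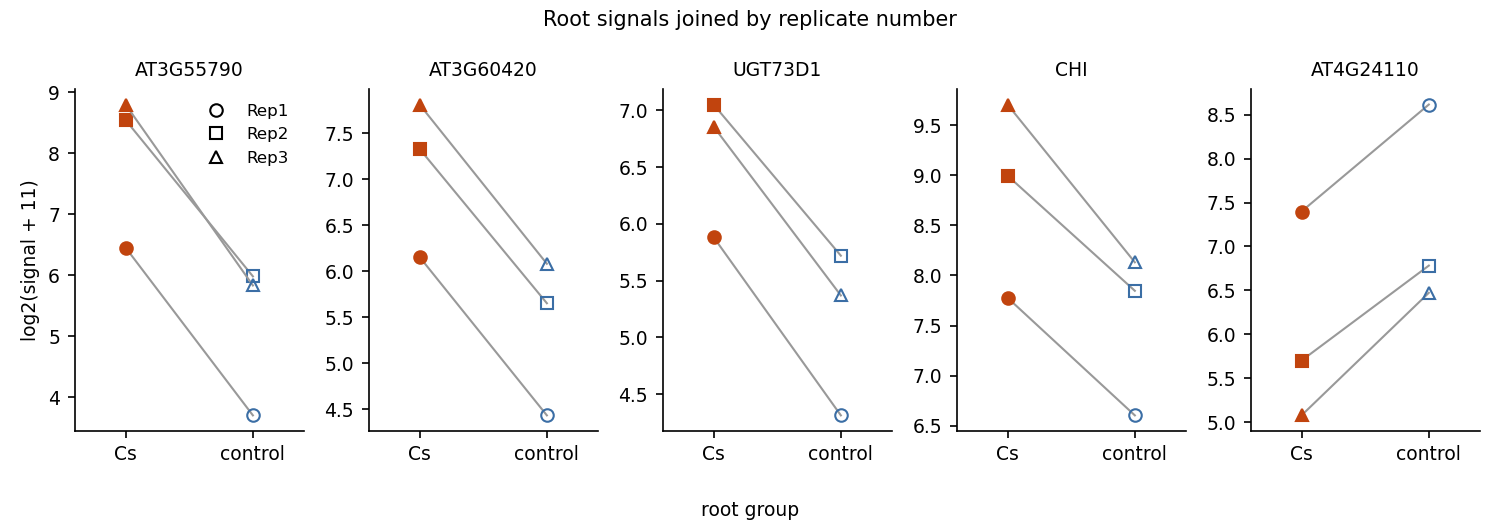
Log2(signal + 11) of the 5 named genes called with the replicate block, Cs root on the left and control root on the right of each panel, each panel on its own axis. Lines join arrays of the same number, and their slopes are alike while number 1 sits lowest in the 4 genes that rose and highest in AT4G24110.

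Of the 24 genes named without pairing, 0 passed with the block. AT1G64590 and AT1G19530 came nearest, both with an adjusted p of 0.0689, followed by AT4G08380 with 0.0748 and within-number differences of 1.09, 1.51 and 2.33. Differences of 1 sign in all 3 numbers are common in these data: 15.5% of tested probe sets were higher and 14.2% lower in every number.

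Extensin-like and proline-rich wall protein genes had the highest median difference of the 16 gene lists with at least 3 tested members, photosynthesis aside. The list holds 13 genes that have their own probe set (11 tested), written out from general knowledge of the loci, since the annotation used here does not describe most of them. Its members were chosen with earlier results of these data known, so the counts below describe the data and do not test them. The naming rule had already picked AT4G08380 and AT5G06630 for Cs roots above all controls. None of the list passed the test in either fit. Of the 11, 9 had higher means in Cs roots (50.2% over all probe sets). In 5 all 3 Cs roots lay above all control roots (4.57% over all) and in 0 below (4.32%). In all 3 numbers 8 were higher (15.5% over all). Their median log2 difference was 0.50, against 0.00 over all tested probe sets, and 0.60 without Cs root replicate 2. The median was 0.45 with array medians set equal and 0.53 after quantile normalization. Within numbers 1, 2 and 3 it was 0.21, 0.57 and 0.89.

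Besides AT4G08380 and AT5G06630, AT1G26240 had 135, 340.3 and 334 in Cs roots and 104, 120.2 and 123 in control roots. Replicate 1 was near the controls, and replicates 2 and 3 were far above them. AT1G26250 had 1084, 2144 and 1963 in Cs roots and 1027, 1058 and 1053 in control roots, the same order of arrays, and AT1G23720 had 491, 628 and 621 in Cs roots and 406, 419.6 and 345 in control roots. Their differences were 1.05 ± 0.32, 0.66 ± 0.23 and 0.55 ± 0.15. The proline-rich HRGP1 had 827, 648 and 778 in Cs roots and 714, 494 and 408 in control roots, with Cs root replicate 2 below control root replicate 1, and AT3G28550 and AT3G09000 had differences of -0.15 and -0.06. Of the 11 probe sets, 4 (AT5G06630, HRGP1, AT4G08410 and AT1G23720) may read related transcripts, so the members are not independent.

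Among class III peroxidases, wall enzymes that use hydrogen peroxide, 39 of 55 genes with their own probe set were tested. None passed the test, and 29 had higher means in Cs roots (50.2% over all probe sets) and 10 lower. In 6 all Cs roots lay above all controls (4.57% over all) and in 0 below (4.32%), and the median difference was 0.15. That median was 0.09 with array medians set equal. The 6 include AT2G41480, which the naming rule had already picked for that order. Root-type transcripts leaned the same way, with 66 of 97 higher by their means and a median of 0.11. Of those 97, 10 lay above all controls and 3 below. AT2G35380 had 57.0, 88.3 and 118 in Cs roots and 35.3, 52.6 and 51.9 in control roots, with a difference of 0.75 ± 0.25. AT5G66390, which encodes PRX72, had 184, 259.8 and 329 in Cs roots and 181, 174 and 152 in control roots (0.54 ± 0.21), its replicate 1 arrays nearly equal. AT5G17820, AT5G64100 and AT4G33420 were brighter and had differences of 0.38 ± 0.11, 0.28 ± 0.12 and 0.28 ± 0.16. AT3G03670 had 668, 1170.0 and 1967 in Cs roots and 409, 625 and 812 in control roots. Its groups overlapped, number 1 was the lowest array in both, and its difference of 0.95 had an adjusted p of 0.0779 with the block. On the lower side the largest difference was that of AT1G49570 (-0.50 ± 0.48), with 254, 155 and 127 in Cs roots and 580.1, 136 and 187 in control roots. Its groups overlapped, and control root replicate 1 was the highest of the 6 arrays.

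The other wall genes, 40 tested probe sets of expansins, xyloglucan enzymes, pectin enzymes and trichome birefringence-like proteins, had a median of -0.02, with 3 above all controls (4.57% over all probe sets), 0 below (4.32%) and 0 passing. TBL34, of the trichome birefringence-like family, had 53.3, 66.9 and 56.9 in Cs roots and 34.4, 42.0 and 38.6 in control roots, and its difference was 0.50 ± 0.16. ATPMEPCRB, a pectin methylesterase, had 65.7, 66.8 and 34.0 in Cs roots and 39.3, 23.0 and 28.3 in control roots. The groups of TBL34 were apart and those of ATPMEPCRB overlapped in replicate 3, with a difference of 0.67 ± 0.25.

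Few genes for ion transport could be assessed, and those tested gave small differences. The members too dim to test are not covered by these values. Only 4 of 15 potassium and cation transport genes with a probe set of their own were bright enough to be tested, and their differences ran from -0.05 to 0.13. CHX20, a cation and proton exchanger, was tested because of its shoot signal, with a mean of 41.2 in control shoots. In roots it was dim, with 1.36, 9.41 and 9.28 in Cs roots and 2.62, 2.54 and 10.3 in control roots. The glutamate receptor-like channels GLR1.4, GLR3.3 and GLR3.6 had differences of -0.05, 0.01 and -0.03. MT1C, a metallothionein that binds metal ions, had 4242, 4222 and 4242 in Cs roots and 3576, 3588 and 4316 in control roots, and control root replicate 3 overlapped the Cs roots (0.15 ± 0.10). The zinc transporter genes ZIP6 and ZIP9 had -0.24 and 0.05.

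Of 5 tested genes of DNA damage and repair, 0 passed, and their differences lay between -0.23 and 0.15. DRT101, named for tolerance to DNA damage, had 80.3, 73.7 and 106 in Cs roots and 76.2, 70.8 and 81.4 in control roots (0.15 ± 0.17). UNG, a uracil DNA glycosylase of base excision repair, had 10.1, 26.3 and 30.9 in Cs roots and 20.9, 33.1 and 27.1 in control roots (-0.23 ± 0.28). ATLIG4, a DNA ligase that joins broken ends, had 0.07 ± 0.16, and RAD51B, of the recombinase family, 0.13 ± 0.33. Cs and control arrays overlapped in all 5 genes, where 4.57% of all tested probe sets lay above all controls and 4.32% below.

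Among 8 antioxidant genes the median was -0.13, with 0 passing. CCS, the copper chaperone that loads superoxide dismutase, had 125, 72.8 and 95.1 in Cs roots and 64.5, 57.7 and 43.5 in control roots. It was the 1 member with all Cs roots above all control roots (4.57% over all probe sets), and 0 lay below (4.32%). Its difference was 0.70 ± 0.21. VTC4, an enzyme of ascorbate synthesis, had 145, 124 and 96.6 in Cs roots and 202, 126 and 139.8 in control roots, and the glutathione reductases GR and GR1 had -0.13 and 0.10. The 5 genes that respond to reactive oxygen had a median of -0.06. WRKY6, a transcription factor, had 79.5, 71.0 and 67.3 in Cs roots and 83.0, 82.6 and 116 in control roots and was below all controls (-0.31 ± 0.17), and WRKY53 had 0.27 ± 0.22. Of 12 glutathione transferase genes, which conjugate toxic compounds, 9 had higher means, 0 passed, and GSTU28 and ATGSTF13 had 0.53 ± 0.22 and 0.43 ± 0.18.

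All 5 flavonoid genes had lower means in Cs roots, with a median of -0.34 and 0 passing, but the direction was not shared by the numbers, whose medians were -0.74, 0.38 and -0.38. UF3GT and UGT78D2, glycosyltransferases of anthocyanins and flavonols, had 34.1, 31.4 and 35.4 in Cs roots and 68.8, 26.8 and 49.4 in control roots, and 64.6, 57.1 and 36.5 in Cs roots and 115, 37.2 and 70.9 in control roots. Control root replicate 1 was the highest of 6 in all 5 genes. In the cell cycle list of 5, PRL, the replication licensing factor MCM7, had 0.20 and CDC27a, of the anaphase-promoting complex, -0.25. Of the defence list of 4, only CHI was called with the block (0.0709% over all probe sets), and the other 3 members had lower means in Cs roots. PR-1-LIKE, a pathogenesis-related protein gene, had 58.3, 42.6 and 33.0 in Cs roots and 101, 51.9 and 40.7 in control roots.

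Cold- and water-stress genes split. LTI30, a dehydrin, had 467, 490.5 and 311 in Cs roots and 835, 579 and 551 in control roots. Its Cs roots lay below all control roots, with a difference of -0.62 ± 0.22. COR15B, a cold-regulated plastid protein, had 32.5, 172 and 32.7 in Cs roots and 23.3, 30.7 and 13.6 in control roots, with a difference of 1.10 that was 0.41 without Cs root replicate 2. The 8 members had a median of -0.02, and 0.01 after quantile normalization, and 0 passed. List medians not given above were -0.01 for potassium and cation transport, 0.05 for metal homeostasis, 0.11 for DNA damage and repair, 0.09 for glutathione transferases, -0.04 for the cell cycle and -0.05 for defence. The lists of root hair, endodermis and organelle gene-expression genes had 2, 1 and 2 tested members with medians of 0.14, 0.16 and -0.19, and those of heat shock and of nutrient transport had 0.

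**Figure D4:**
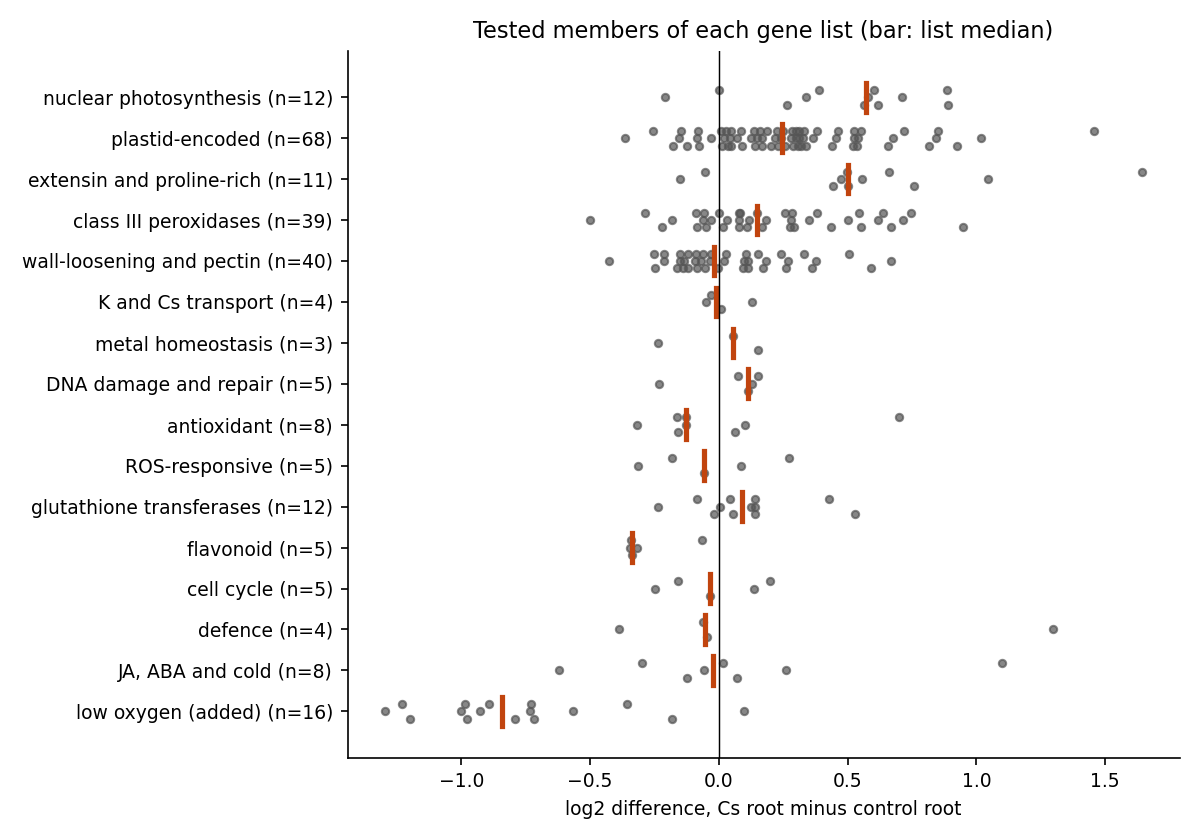
Log2 difference, Cs root minus control root, of each tested probe set in the 16 lists with at least 3 tested members, with a bar at the list median. The medians lie highest for nuclear photosynthesis (0.57) and extensin-like genes (0.50) and lowest for the low-oxygen genes (-0.84), a list added after values were seen.

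A list of genes that plants induce when oxygen is short was drawn up after AT1G19530, PDC2 and AT4G24110, all 3 of them members, had been seen on the lower side, so it describes the data and does not test them. It holds 40 loci from general knowledge of the core low-oxygen response, of which 17 have a probe set of their own and 16 were tested. By their means 15 of 16 were lower in Cs roots, and 12 were lower in all 3 numbers, where 14.2% of all probe sets were. Without pairing 0 passed and 2 lay below all controls (4.32% over all), AT1G19530 and PDC2, and with the block 1 passed (0.00645% lower over all), AT4G24110. These are the 3 genes that prompted the list, and none of the other members passed either fit or lay below all controls. The median log2 difference was -0.84, or -0.78, -0.55 and -1.04 within numbers 1, 2 and 3. It was -0.77 without Cs root replicate 2, -0.90 with array medians set equal and -0.82 after quantile normalization.

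The arrays of each group also differed among themselves. The median signal of the 16 was 271, 206 and 142 in Cs roots, against 459.5, 231 and 231 in control roots. Control root replicate 1 was the highest of 6 in 15 of the 16 genes, and Cs root replicate 3 the lowest in 14. AT3G10040, which encodes HRA1, a factor that attenuates the low-oxygen response, had 202, 54.7 and 40.7 in Cs roots and 393, 127 and 93.2 in control roots. Within numbers it differed by -0.92, -1.07 and -1.01 (limma with the block, adjusted p = 0.0689), while the unpaired groups overlapped. AT3G03270 had 1334, 593 and 445 in Cs roots and 2199, 989 and 1060.3 in control roots, and AT1G33055 had 471, 248 and 161 in Cs roots and 815, 431 and 447 in control roots. In each of these genes number 1 was highest in both groups.

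AT4G10270 had 743, 313 and 136 in Cs roots and 1423, 485 and 599 in control roots, AT4G27450 had 1779.8, 1086 and 635 in Cs roots and 2753, 1381 and 1510.0 in control roots, and their differences of -1.20 and -0.74 had standard errors of 0.58 and 0.38. AT5G10040 had the widest range, with 378, 156 and 12.4 in Cs roots and 755, 134 and 191 in control roots, and was higher in Cs roots within number 2. CML38, a calmodulin-like gene, had 118, 131 and 70.5 in Cs roots and 163, 128 and 79.4 in control roots, with overlapping groups, and AT4G17670 was the 1 member with a higher mean in Cs roots (0.10). In shoots the median Cs minus control difference of the 16 was -0.10, with 11 lower. Their median signal there was dim, from 17.6 to 36.2 in Cs shoots and from 17.3 to 47.8 in control shoots. At such signals the constant of 11 shrinks differences, so the shoot and root medians are not on equal terms. Root minus shoot effects were tested over all probe sets, and 0 of 15508 passed (0%), with 341 at an unadjusted p under 0.05 (2.2%).

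**Figure D5:**
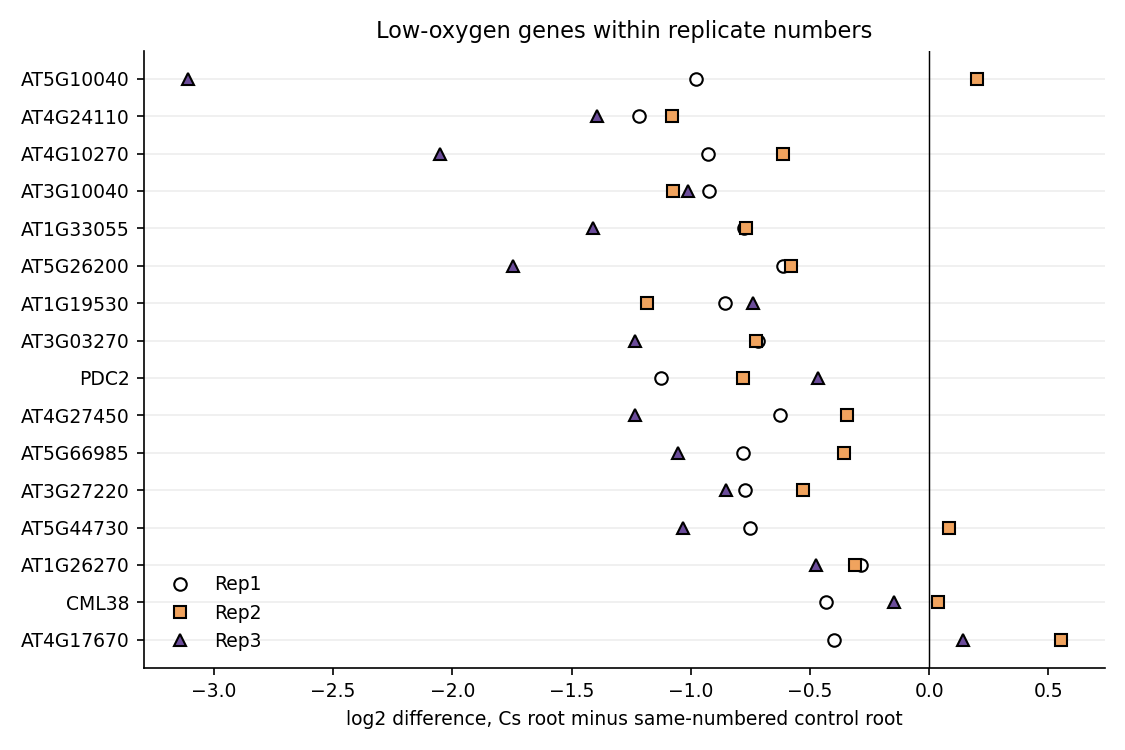
Log2 difference between each Cs root and the control root of the same number for the 16 tested low-oxygen genes, with 1 symbol for each number. In 12 genes all 3 symbols lie below 0, and the order of the numbers changes from gene to gene.

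The tests of the difference between roots and shoots bear on the 24 genes named without pairing. Of the 12 higher in Cs roots, 9 had a positive Cs minus control difference in shoots too, and of the 12 lower, 5 had a negative one. The median shoot difference over all tested probe sets was 0.01. AT4G08380 had 1.64 in roots and 0.13 in shoots, where its mean control signal was 5.34, and AT1G19530 had -0.93 and -0.08. The smallest adjusted p of the root minus shoot difference among the 24 was 0.9996 in limma, so a difference between the tissues was not detected. That does not show that the tissues respond alike, because this difference was less precise. Its standard error was 0.92 for AT1G19530, 1.04 for PDC2 and 0.36 for AT4G08380, against 0.12, 0.21 and 0.24 for the root difference.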

How the data were processed

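The authors deposited linear intensities, 1 for each probe set on each array, made with MAS5 per the submitters' processing notes, which give no version. No pair of root arrays held identical values. Of 22810 probe sets, 64 are controls, 13513 name 1 gene (13436 of them found in the RefSeq TAIR10.1 gene table), 503 name several and 8730 are unlisted. Probe sets naming several genes or none were tested and counted but not named. Coordinates are left out because no source used here names the build behind the array.

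Signals were transformed as log2(signal + 11). Probe sets were tested where their mean log2 signal reached the 40th percentile in at least 1 tissue (about 31.2 in root, 28.0 in shoot). Limma 3.58.1 in R 4.3.3 (lmFit, eBayes with an intensity trend, Benjamini-Hochberg at 0.05) was fitted to the 6 root arrays alone, so that shoot arrays do not set the spread, and with the replicate number as a block. Root minus shoot effects used all 12 arrays. The code was tested on simulated data. The number of arrays limits the precision.

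Named genes are, among probe sets with 1 gene, up to 12 in each direction as stated, up to 8 in each direction called with the block, 2 to 4 per list, 10 shoot-type genes and, as a description, the 4 with the largest excess on each array. Other genes named are list members, chosen after their values were seen. Members and lists were chosen with earlier results of these data known. Of 21 lists, most were found by gene symbol or description, extensins and peroxidases were written from general knowledge, and the low-oxygen list was added after values were seen. Names that matched by accident (such as FRO1, FROSTBITE1, in the metal list) were removed by annotation.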

Additional observations from a re-analysis of the deposited data

How the results depend on the processing

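The 3 arrays in each group limit what could be detected, and dim genes follow the constant added before the logarithm. The count of 0 probe sets passing without pairing held under the planned changes of constant, filter, normalization, trend, array weights, the fit to all 12 arrays and the shoot-type covariate. It was 11 with the replicate block, and leaving out each array without the block gave 0 to 2, the 2 without Cs root replicate 1, both unnamed (limma, adjusted p = 0.0332 and 0.0473). The 11 probe sets called with the replicate block were 0 without it, and 43, 19 and 12 without replicates 1, 2 and 3 of both groups. In alternatives chosen after seeing the data, all with the block, they were 4 with a constant of 44, 1 with no filter, 23 with a filter on the root mean and 2 with no trend. The shoot-type median of 0.28 was -0.21 with the block without replicate 2. With the shoot-type level as a covariate it was 0.01. That value is near 0 by construction, because the covariate is the median of the same probe sets on each array. Under the other settings, with or without the block, it lay above this, up to 0.53. Leaving out each array without the block gave -0.10 (without Cs root replicate 2) to 0.51, so the sign rests on that array. The root minus shoot count was 0 in all alternatives run. Of 29 named genes none reversed, and 9 passed the threshold in some alternative, all with the block. The cause was not tested.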

Other observations

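Some genes were set apart by a single root array other than Cs root replicate 2. SUFE2, named for sulfur E2, a protein of iron-sulfur cluster assembly, had 36.1, 81.4 and 177 in Cs roots and 22.6, 46.1 and 59.7 in control roots, and AT3G19430 had 75.9, 65.4 and 322 in Cs roots and 48.6, 101 and 123 in control roots. AT4G13180 had 142, 165 and 409 in Cs roots and 149, 142 and 198 in control roots. In these genes Cs root replicate 3 was the highest, and the log2 differences were 0.86 ± 0.47, 0.43 ± 0.54 and 0.38 ± 0.35. Cs root replicate 3 also had 40 probe sets more than 2-fold below the lowest of the other 5 root arrays, where Cs root replicates 1 and 2 had 4 each and the control roots 24, 2 and 7.

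Control root replicate 1 led in other genes. ICL, isocitrate lyase of the glyoxylate cycle, had 66.9, 24.9 and 2.90 in Cs roots and 216, 21.1 and 74.8 in control roots, and AT4G33560 had 300.4, 114 and 48.8 in Cs roots and 654, 181 and 169 in control roots. Their groups overlapped, with differences of -1.34 ± 0.76 and -1.10 ± 0.65. Control root replicate 3 was the highest in AT1G50290, with 32.1, 25.7 and 29.7 in Cs roots and 32.5, 18.1 and 96.1 in control roots, and control root replicate 2 in BUBR1, a mitotic checkpoint gene, with 38.7, 32.9 and 29.9 in Cs roots and 27.0, 68.4 and 25.4 in control roots. AT4G35940 had 124, 60.5 and 73.4 in Cs roots and 57.2, 52.7 and 59.8 in control roots, with Cs root replicate 1 the highest. None of these genes passed limma in either fit.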
